A study of Mus musculus with 18 samples.

Results

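The small nucleolar RNAs and Cajal body RNAs were followed in MLg 2908 cells, a single line of mouse lung fibroblasts, plated on a three-dimensional collagen gel. The RNAs were taken as all genes with a symbol beginning in Snora, Snord or Scarna and measured by a probe set that carries exactly 1 symbol. This gave 54 genes of the 19938 named genes on the array, among them 20 Snora, 31 Snord and 3 Scarna genes. They rest on 60 probe sets, and a gene with several is given by the brightest. A further 41 probe sets name such a gene together with others, cover 18 symbols and were not used. Invading cells were those recovered from within the gel, and non-invading cells those that stayed on its surface. After 96 hours there were 5 invading and 5 non-invading samples, and after 72 hours there were 4 invading and 4 non-invading samples, which makes 18 arrays. All groups share the line, which the labels give as ddY strain, newborn and WT. The treatment entry of every sample mentions TGFB1 beside the invasion assay, whereas no title names a treatment and the study's figures mark the cells as non-treated. The titles call the samples biological replicates.

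Small nucleolar RNAs guide the chemical modification of other RNAs by base pairing, mostly ribosomal RNA. H/ACA RNAs (Snora genes) sit in a particle with the pseudouridine synthase dyskerin and direct the conversion of uridine to pseudouridine. C/D RNAs (Snord genes) sit in a particle with the methyltransferase fibrillarin and direct methylation of the ribose. A few members, such as U8 (Snord118), U22 (Snord22) and U17 (Snora73a and Snora73b), act in the cutting of the ribosomal RNA precursor instead. Cajal body RNAs (Scarna genes) carry the same boxes and guide the modification of spliceosomal RNAs in the Cajal body, a nuclear compartment. In mammals most of these RNAs are cut out of introns of a host gene, often one for a ribosomal protein or a noncoding RNA whose exons have no known protein product. A probe set cannot tell the mature small RNA from the same sequence within an unspliced host transcript. In bulk RNA, fewer cells of a kind and less RNA per cell cannot be told apart.

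In the RefSeq annotation (GRCm38.p6), 53 of the 54 RNAs lay within the span of a longer gene, and Snord118 did not. The strand was not compared, because the table used gives none. The 53 RNAs fell in 46 such hosts. Hosts that hold more than 1 of them included Snhg12 with Snora16a and Snora44, Snhg3 with Snora73a and Snora73b, Rps3 with Snord15a and Snord15b, Rpl23a with Snord42a and Snord42b, Rack1 with Snord95 and Snord96a, Ncl with Snora75 and Snord82, Rpl13a with Snord33 and Snord35a, Rps3a1 with Snord73a and Snord73b, and 2410006H16Rik with Snord49a and Snord49b. The starts of 5 hosts are shown because their small RNAs had among the highest or lowest ratios. Sequences of the small RNAs themselves were not used here. Each window holds 50 bases before and 50 after the annotated start, on the strand of the gene. Capitals mark runs of 7 or more pyrimidines, C or T, which are a feature of the starts of genes for ribosomal proteins and many snoRNA hosts.
Tpt1 (chr14:75845206-75845305, plus strand, GRCm38.p6), host of Snora31: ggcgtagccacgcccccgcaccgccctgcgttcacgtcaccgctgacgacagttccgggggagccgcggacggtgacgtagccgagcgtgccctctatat
Snhg12 (chr4:132308628-132308727, plus strand, GRCm38.p6), host of Snora16a and Snora44: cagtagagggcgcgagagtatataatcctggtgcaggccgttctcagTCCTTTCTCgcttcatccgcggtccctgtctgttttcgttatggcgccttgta
Snhg3 (chr4:132353637-132353736, minus strand, GRCm38.p6), host of Snora73a and Snora73b: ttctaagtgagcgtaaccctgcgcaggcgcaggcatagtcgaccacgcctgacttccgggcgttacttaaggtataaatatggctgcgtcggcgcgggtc
Rps3 (chr7:99483660-99483759, minus strand, GRCm38.p6), host of Snord15a and Snord15b: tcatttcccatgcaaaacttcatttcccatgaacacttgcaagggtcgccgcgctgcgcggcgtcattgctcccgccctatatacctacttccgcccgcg
Rack1 (chr11:48800310-48800409, plus strand, GRCm38.p6), host of Snord95 and Snord96a: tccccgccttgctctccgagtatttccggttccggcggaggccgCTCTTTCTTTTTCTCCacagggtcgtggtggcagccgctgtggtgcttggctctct
The Rack1 window holds 1 run of 16 pyrimidines and the Snhg12 window 1 run of 9. The windows of Tpt1, Snhg3 and Rps3 hold none. Among 35 windows of 33 hosts with an entry, 25 held such a run on the gene's strand (71.4%) and 16 held one on the other strand (45.7%). Among all 32851 windows of the same length the shares were 50.3% and 53.1%. A match, or the absence of one, describes only the letters in the window around the annotated start.

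Each value below is a log2 signal as deposited, and a ratio is the difference of log2 group means, invading minus non-invading, with its standard error (SE). An RNA was called higher or lower in the invading fraction at an adjusted p under 0.10 in limma, with p-values of all 35556 probe sets adjusted by the Benjamini-Hochberg method. Sample medians over all probe sets differed between the fractions without overlap. They were 6.46 to 6.54 in invading samples at 96 hours, against 6.58 to 6.64 in non-invading samples. At 72 hours they were 6.50 to 6.53 against 6.54 to 6.65. Pearson correlations between samples of a group over all probe sets were at least 0.991. Precision is limited by the small number of arrays. Of 8 fibroblast markers, 7 had mean log2 signals of 11.99 (Pdgfrb) to 13.52 (Fn1), but Thy1 was at 6.07, under the median of 7.14 for all genes. Col1a1, Col1a2 and Col3a1 were called lower at both times, with log2 ratios of -0.24, -0.20 and -0.35 at 96 hours and -0.24, -0.20 and -0.34 at 72 hours, and Pdgfrb was called higher at 72 hours (0.27). The part of the fibroblast markers in the small RNA results was not tested. All 6 epithelial markers, 4 endothelial markers and 4 leukocyte markers had group means of at most 7.88. Of these 14 markers of other cell types, 4 were called higher at 96 hours (Krt8, Epcam, Cdh1 and Cd68) and 1 at 72 hours (Krt8). The summed linear signal of the 6 epithelial markers ran between 473 and 512 in invading samples at 96 hours, against 384 to 462 in non-invading samples, and between 494 and 606 in invading samples at 72 hours, against 424 to 510 in non-invading samples. For leukocyte markers the sums were 266 to 353 against 222 to 260 at 96 hours, and 298 to 369 against 287 to 327 at 72 hours. For endothelial markers they were 159 to 174 against 141 to 169 at 96 hours, and 165 to 190 against 160 to 175 at 72 hours. Their part in the small RNA results was not tested.

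The H/ACA RNAs that passed the test were higher in the invading fraction without exception at either time. C/D RNAs passed it in both directions, at 72 hours in shares near those of all genes. At 96 hours, 26 of the 54 RNAs were called higher and 7 lower, beside 16.7% of all genes higher and 14.7% lower. Of the 20 H/ACA RNAs, 14 were higher (70%) and 0 lower. Of the 31 C/D RNAs, 10 were higher (32.3%) and 7 lower (22.6%), and of the 3 Cajal body RNAs 2 were higher. The median log2 ratio was 0.49 for H/ACA RNAs, 0.055 for C/D RNAs and 0.36 for Cajal body RNAs, beside 0.024 for all genes. At 72 hours, 22 of the 54 RNAs were called higher and 4 lower, beside 13% of all genes higher and 13.5% lower. The 20 H/ACA RNAs again gave 14 higher and 0 lower, at a median log2 ratio of 0.81, which is a ratio of 1.76. The 31 C/D RNAs gave 5 higher (16.1%) and 4 lower (12.9%), at a median of -0.013, and the 3 Cajal body RNAs were all higher, at a median of 0.56, beside 0.038 for all genes. By unadjusted p under 0.05, 15 H/ACA RNAs were higher and 0 lower at either time.

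The 2 classes can also be set against each other within a sample, which leaves out whatever moves all small RNAs of a sample alike. The mean log2 signal of the 20 H/ACA RNAs minus that of the 31 C/D RNAs was 0.54, 0.43, 0.54, 0.73 and 0.72 in invading samples at 96 hours, against -0.013, 0.14, 0.037, -0.077 and 0.002 in non-invading samples. At 72 hours it was 0.75, 1.03, 0.92 and 1.13 in invading samples, against 0.17, 0.073, 0.15 and 0.13 in non-invading samples. The fractions did not overlap at either time. The mean difference was 0.59 ± 0.13 in invading and 0.018 ± 0.08 in non-invading samples at 96 hours (SD, n = 5 each), and 0.96 ± 0.16 in invading and 0.13 ± 0.043 in non-invading samples at 72 hours (SD, n = 4 each). The H/ACA class itself averaged 9.33 ± 0.14 in invading and 8.76 ± 0.16 in non-invading samples at 96 hours, and 10.08 ± 0.46 and 9.30 ± 0.15 at 72 hours. The C/D class averaged 8.74 ± 0.19 in invading and 8.75 ± 0.12 in non-invading samples at 96 hours, and 9.12 ± 0.34 and 9.17 ± 0.14 at 72 hours. The Cajal body class averaged 9.79 ± 0.078 in invading and 9.47 ± 0.16 in non-invading samples at 96 hours, and 10.20 ± 0.21 and 9.62 ± 0.11 at 72 hours. These class means are a description, since RNAs of a class are not replicates, and carry no test.

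**Figure D1:**
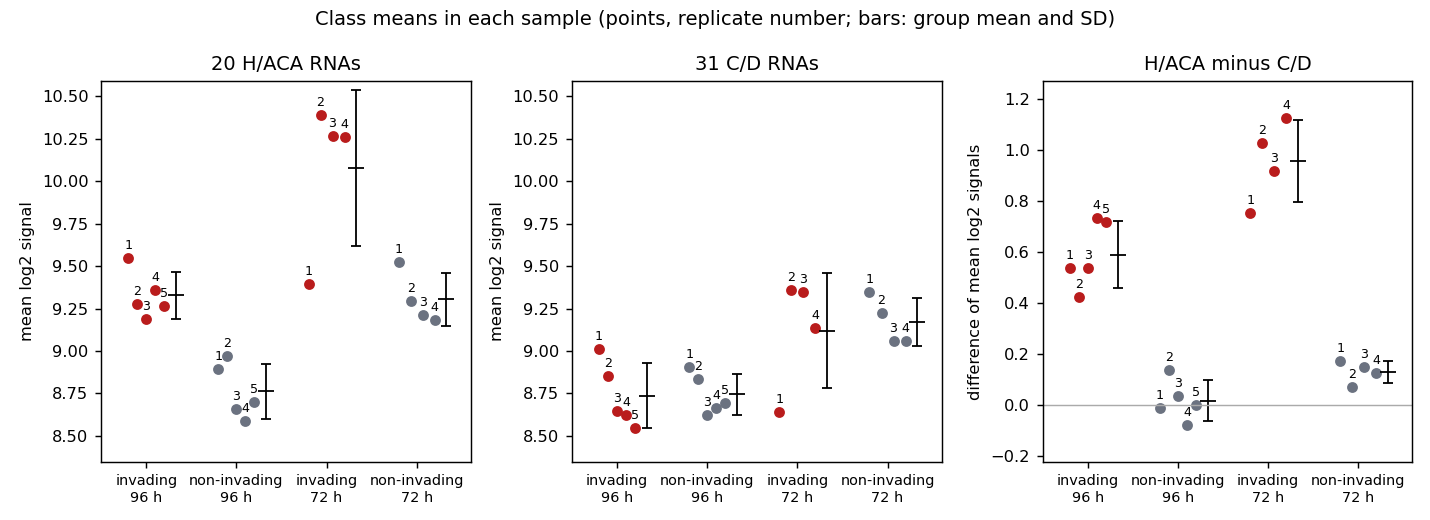
Mean log2 signal of the 20 H/ACA RNAs and of the 31 C/D RNAs in each sample, and their difference (vertical axes), for the invading and non-invading samples at 96 and 72 hours; points carry the replicate number and bars give the group mean and SD. The difference lies at 0.43 or above in every invading sample and at 0.17 or below in every non-invading sample.

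The first invading replicate at 72 hours stood apart in these RNAs. It had the lowest signal of the 4 invading samples for 53 of the 54 RNAs, among them 20 of 20 H/ACA, 30 of 31 C/D and 3 of 3 Cajal body RNAs, while it was the lowest for 21.6% of all genes. Its median gap to the mean of its 3 companions was 0.80 for H/ACA RNAs, 0.50 for C/D RNAs and 0.077 for Cajal body RNAs, beside -0.008 over all genes. Of the 9 other small noncoding RNAs measured, it was lowest for 6 and highest for 2, and of the 26 host genes measured it was lowest for 4. Without it, 18 of 20 H/ACA RNAs were higher and 0 lower at 72 hours, 12 of 31 C/D RNAs were higher and 4 lower, and the medians were 0.97 and 0.18. All genes then gave 9.69% higher and 11.2% lower. The 11 RNAs gained were Snora3, Snora41, Snora52, Snora70, Snord104, Snord118, Snord14e, Snord35a, Snord49a, Snord49b and Snord87, and 0 calls were lost. The count of higher C/D RNAs at 72 hours was thus 5 with this sample and 12 without it.

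Complete separation of the fractions ran upwards only for H/ACA RNAs and in both directions for C/D RNAs. At 96 hours, all 5 invading samples lay above all 5 non-invading samples for 16 RNAs, of which 11 were H/ACA, 4 C/D and 1 Cajal body, and below them for 5 RNAs, all C/D. Over all genes 9.35% were separated upwards and 8.8% downwards. At 72 hours the fractions were separated upwards for 17 RNAs (11 H/ACA, 4 C/D and 2 Cajal body) and downwards for 4, all C/D, beside 12.5% and 12.3% of all genes. For the 31 C/D RNAs the 4 in each direction at 72 hours were near these shares of all genes. Over the 54 RNAs, the 5 separated downwards at 96 hours were near the share of all genes, and the 4 at 72 hours were under it.

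**Figure D2:**
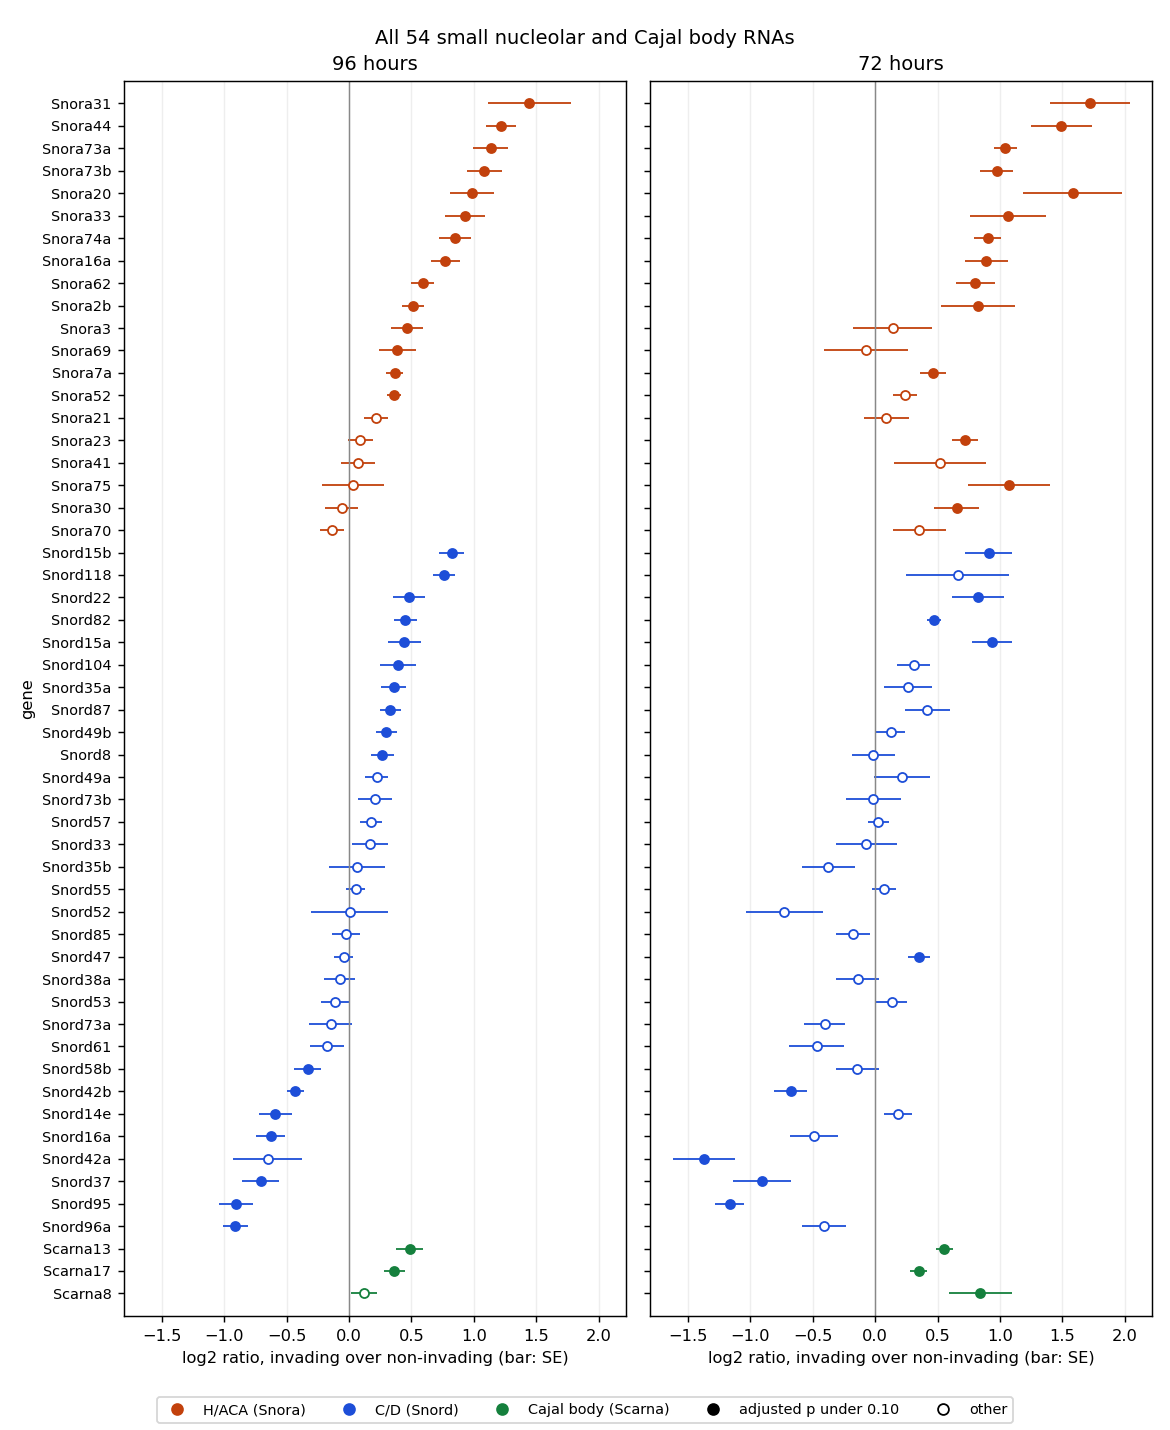
Log2 ratio of invading over non-invading samples (horizontal axis) with its SE for all 54 RNAs (vertical axis), at 96 hours (n = 5 each) and at 72 hours (n = 4 each), coloured by class; filled points have an adjusted p under 0.10. Filled H/ACA points lie to the right of 0 only, 14 at each time, whereas filled C/D points lie on both sides. At 72 hours the shares of C/D RNAs filled on either side were near those of all genes.

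Among H/ACA RNAs, Snora31 had the highest ratio at both times. Snora31 lies in Tpt1, which encodes translationally controlled tumour protein. Its log2 signal at 96 hours was 9.81, 9.40, 9.29, 9.63 and 9.65 in invading samples, against 8.22, 9.53, 7.66, 7.53 and 7.61 in non-invading samples (log2 ratio 1.45 ± 0.33, adjusted p = 0.00795). The second non-invading replicate was 1 high sample within the invading range, and the other non-invading samples were lower than every invading one. At 72 hours Snora31 was 9.54, 11.08, 10.89 and 10.42 in invading samples, against 9.30, 8.66, 8.60 and 8.49 in non-invading samples, with no overlap (log2 ratio 1.72 ± 0.32, adjusted p = 0.00643).

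Snora44 and Snora16a, both in the noncoding host Snhg12, were separated at both times. Snora44 was 9.99, 10.01, 9.92, 10.28 and 9.67 in invading samples, against 8.92, 8.95, 8.78, 8.46 and 8.69 in non-invading samples at 96 hours (log2 ratio 1.21 ± 0.12, adjusted p = 7.16e-05). In the 72-hour samples it was 10.20, 11.28, 11.09 and 11.49 in invading samples, against 9.63, 9.62, 9.52 and 9.34 in non-invading samples (log2 ratio 1.49 ± 0.24, adjusted p = 0.00365). Snora16a was 10.50, 10.50, 10.10, 10.42 and 10.64 in invading samples, against 9.81, 9.97, 9.48, 9.55 and 9.50 in non-invading samples at 96 hours (log2 ratio 0.77 ± 0.12, adjusted p = 0.000839). At 72 hours Snora16a gave 10.54, 11.39, 11.09 and 11.06 in invading samples, against 10.39, 10.17, 9.93 and 10.03 in non-invading samples (log2 ratio 0.89 ± 0.17, adjusted p = 0.00756). For both RNAs every invading sample was above every non-invading sample.

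Snora20, in the chaperonin gene Tcp1, had lower signals and a wide spread at 72 hours. At 96 hours it was 8.51, 7.78, 8.09, 8.45 and 7.81 in invading samples, against 7.51, 7.06, 7.23, 6.72 and 7.20 in non-invading samples, with no overlap (log2 ratio 0.99 ± 0.18, adjusted p = 0.00187). After 72 hours the signal was 7.44, 9.21, 9.32 and 9.51 in invading samples, against 7.33, 7.14, 7.29 and 7.39 in non-invading samples (log2 ratio 1.58 ± 0.39, adjusted p = 0.0221). The first invading replicate at 72 hours was at the level of the non-invading samples, and its 3 companions were far above.

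Snora73a and Snora73b encode the 2 copies of U17, the H/ACA RNA that takes part in ribosomal RNA cutting, and lie in Snhg3. Their sequences are alike, so a share of the signal may be common to both probe sets. Snora73a was 11.20, 11.06, 10.94, 10.98 and 11.30 in invading samples, against 10.05, 10.46, 9.86, 9.73 and 9.71 in non-invading samples at 96 hours (log2 ratio 1.13 ± 0.14, adjusted p = 0.00023). At 72 hours Snora73a was 11.60, 11.91, 11.75 and 11.66 in invading samples, against 10.89, 10.65, 10.64 and 10.57 in non-invading samples (log2 ratio 1.04 ± 0.095, adjusted p = 0.00045). The invading samples were above the non-invading samples without overlap at both times, and the first invading replicate at 72 hours was less than 0.1 below its next companion. Snora73b had a log2 ratio of 1.08 at 96 hours (adjusted p = 0.000291) and 0.97 at 72 hours (adjusted p = 0.00181), also without overlap.

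Snora33, in the ribosomal protein gene Rps12, was 9.99, 9.34, 9.38, 9.46 and 9.60 in invading samples, against 9.10, 8.77, 8.32, 8.47 and 8.48 in non-invading samples at 96 hours, without overlap (log2 ratio 0.93 ± 0.16, adjusted p = 0.00161). The 72-hour signal was 10.08, 11.51, 11.33 and 11.37 in invading samples, against 10.49, 9.88, 9.77 and 9.91 in non-invading samples, where the first invading replicate lay inside the non-invading range (log2 ratio 1.06 ± 0.30, adjusted p = 0.0373). Snora74a (U19), in Snhg4, and Snora62 (E2), in the ribosomal protein gene Rpsa, were separated at both times. The log2 ratio of Snora74a was 0.85 at 96 hours (adjusted p = 0.000695) and 0.90 at 72 hours (adjusted p = 0.00117). That of Snora62 was 0.59 at 96 hours (adjusted p = 0.000922) and 0.80 at 72 hours (adjusted p = 0.00856). Snora7a was called higher at both times with smaller ratios, 0.37 at 96 hours and 0.47 at 72 hours.

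Snora2b and Snora75 were the least secure of the H/ACA calls at 72 hours. Snora2b was 7.80, 7.84, 7.66, 7.67 and 7.46 in invading samples, against 7.34, 7.15, 7.05, 7.04 and 7.29 in non-invading samples at 96 hours, without overlap (log2 ratio 0.51 ± 0.086, adjusted p = 0.00135). The values at 72 hours were 6.97, 7.96, 8.64 and 7.89 in invading samples, against 7.34, 6.95, 6.91 and 6.96 in non-invading samples, with overlap (log2 ratio 0.82 ± 0.29, adjusted p = 0.0806). Snora75 was not called at 96 hours, at 7.01, 6.08, 6.15, 6.89 and 5.93 in invading samples, against 6.13, 6.68, 6.13, 6.02 and 6.94 in non-invading samples (log2 ratio 0.033 ± 0.25, adjusted p = 0.943). It was called at 72 hours, at 6.17, 7.64, 7.62 and 7.63 in invading samples, against 6.68, 6.01, 6.09 and 5.99 in non-invading samples, with overlap (log2 ratio 1.07 ± 0.33, adjusted p = 0.0483). Leaving out any 1 of the invading replicates 2, 3 and 4, or of the non-invading replicates 3 and 4, ended both calls at 72 hours, and leaving out non-invading replicate 2 ended that of Snora2b. Snora23 and Snora30 were called at 72 hours only, with log2 ratios of 0.092 and -0.058 at 96 hours, against 0.72 and 0.65 at 72 hours. Snora3, Snora52 and Snora69 were called at 96 hours only, with 0.47, 0.36 and 0.39, and the call of Snora69 ended without any 1 of 8 of the 10 samples, all but invading replicate 5 and non-invading replicate 1. Snora21, Snora41 and Snora70 were called at neither time. Snora52, the brightest H/ACA RNA at a mean log2 signal of 12.93, was 13.05, 12.99, 12.99, 13.02 and 12.91 in invading samples, against 12.79, 12.65, 12.54, 12.62 and 12.55 in non-invading samples at 96 hours, without overlap (log2 ratio 0.36 ± 0.059, adjusted p = 0.00113).

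**Figure D3:**
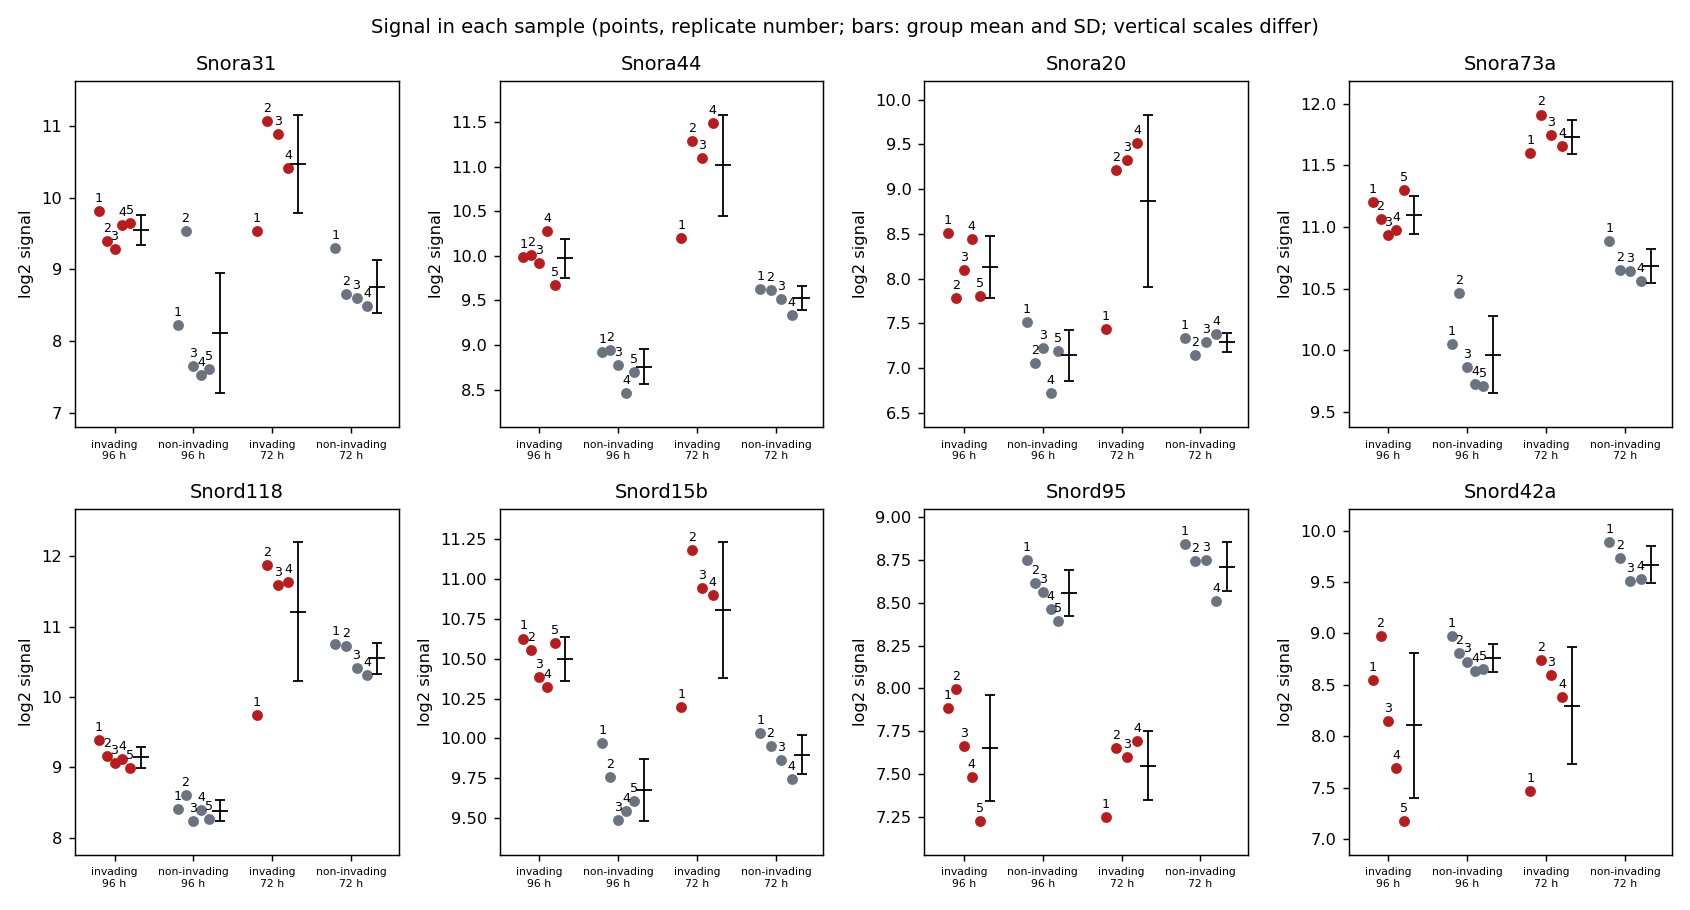
Log2 signal (vertical axes, with different scales) of 4 H/ACA RNAs and 4 C/D RNAs in each invading and non-invading sample at 96 and 72 hours; points carry the replicate number and bars give the group mean and SD. The invading samples of Snora44 and Snora73a lie above all non-invading samples at each time, those of Snord95 lie below, and the first invading replicate at 72 hours is the lowest of its group in all 8 panels.

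The 4 C/D RNAs over 100 nt were all higher at 96 hours, and 3 of them at 72 hours. This cut in length was chosen after the values were seen and has no test. Of all genes 16.7% were higher at 96 hours and 13% at 72 hours. Snord15b and Snord15a, the U15 RNAs in the ribosomal protein gene Rps3, were called at both times. Snord15b was 10.63, 10.56, 10.38, 10.32 and 10.60 in invading samples, against 9.97, 9.76, 9.49, 9.55 and 9.61 in non-invading samples at 96 hours (log2 ratio 0.82 ± 0.099, adjusted p = 0.000212). In the 72-hour samples it was 10.20, 11.19, 10.95 and 10.90 in invading samples, against 10.03, 9.95, 9.87 and 9.74 in non-invading samples (log2 ratio 0.91 ± 0.19, adjusted p = 0.00992). The fractions were separated at each time. Snord15a had a log2 ratio of 0.44 at 96 hours (adjusted p = 0.0293), where 2 invading samples reached into the non-invading range, and of 0.94 at 72 hours (adjusted p = 0.0046), without overlap.

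Snord118 (U8), needed for the maturation of the large-subunit ribosomal RNAs, was 9.39, 9.16, 9.06, 9.12 and 8.99 in invading samples, against 8.40, 8.61, 8.24, 8.40 and 8.27 in non-invading samples at 96 hours, without overlap (log2 ratio 0.76 ± 0.089, adjusted p = 0.000191). After 72 hours the signal was 9.74, 11.88, 11.59 and 11.64 in invading samples, against 10.75, 10.72, 10.42 and 10.31 in non-invading samples (log2 ratio 0.66 ± 0.41, adjusted p = 0.3). There the first invading replicate was below every non-invading sample and the other invading samples were above every one. Without that replicate the log2 ratio at 72 hours was 1.15 (adjusted p = 0.00255). Snord118 is read by 2 probe sets that hold identical values, as are Scarna17 and Snora30, and each was counted once.

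Snord22 (U22), in Snhg1, was 8.73, 8.19, 8.17, 8.30 and 8.74 in invading samples, against 8.15, 7.99, 7.71, 7.95 and 7.93 in non-invading samples at 96 hours, without overlap (log2 ratio 0.48 ± 0.13, adjusted p = 0.0187). The 72-hour signal was 8.13, 8.95, 8.68 and 9.14 in invading samples, against 8.22, 7.91, 7.70 and 7.75 in non-invading samples, with overlap through the first invading replicate (log2 ratio 0.83 ± 0.21, adjusted p = 0.0226). Snord82, in the nucleolin gene Ncl, was called higher at both times, with log2 ratios of 0.45 and 0.47 at 96 and 72 hours. The 6 C/D RNAs called higher at 96 hours only were Snord118, Snord104, Snord35a, Snord49b, Snord8 and Snord87, and Snord47 was so at 72 hours only. Other than Snord118, these had log2 ratios of 0.27 to 0.39 at 96 hours, and Snord47 had 0.35 at 72 hours. The calls of Snord104 and Snord8 at 96 hours ended without any 1 of several samples, among them invading replicate 1.

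Of the C/D RNAs, 7 were lower in the invading fraction at 96 hours, and Snord95 had a ratio near the lowest at both times. Snord95 was 7.89, 7.999, 7.67, 7.48 and 7.22 in invading samples, against 8.75, 8.62, 8.56, 8.47 and 8.40 in non-invading samples at 96 hours (log2 ratio -0.91 ± 0.14, adjusted p = 0.000705). The values at 72 hours were 7.25, 7.65, 7.60 and 7.69 in invading samples, against 8.85, 8.74, 8.75 and 8.51 in non-invading samples (log2 ratio -1.16 ± 0.11, adjusted p = 0.000557). Every invading sample was lower than every non-invading sample at each time. Snord96a, in the same host Rack1, was 6.61, 6.42, 6.27, 6.30 and 6.27 in invading samples, against 7.09, 7.34, 7.07, 7.39 and 7.52 in non-invading samples at 96 hours, again without overlap (log2 ratio -0.91 ± 0.10, adjusted p = 0.000139). In the 72-hour samples it was 6.71, 6.62, 6.85 and 6.83 in invading samples, against 7.67, 7.29, 6.94 and 6.76 in non-invading samples, with overlap (log2 ratio -0.41 ± 0.18, adjusted p = 0.135).

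Snord42a and Snord42b lie in the ribosomal protein gene Rpl23a. Snord42a was 8.55, 8.97, 8.15, 7.69 and 7.17 in invading samples, against 8.97, 8.81, 8.73, 8.64 and 8.65 in non-invading samples at 96 hours (log2 ratio -0.65 ± 0.28, adjusted p = 0.106), where the invading samples spread widely and 1 of them matched the highest non-invading sample. It passed the limma test at 96 hours under 8 of the alternatives, with adjusted p between 0.0205 and 0.0976, among them the fits without invading replicate 1 or 2, where the log2 ratios were -0.76 and -0.87. It had the lowest ratio of all at 72 hours, at 7.47, 8.74, 8.59 and 8.39 in invading samples, against 9.89, 9.74, 9.51 and 9.53 in non-invading samples, without overlap (log2 ratio -1.37 ± 0.25, adjusted p = 0.00575). Snord42b was 8.57, 8.60, 8.42, 8.59 and 8.46 in invading samples, against 9.002, 8.92, 8.90, 9.12 and 8.84 in non-invading samples at 96 hours (log2 ratio -0.43 ± 0.066, adjusted p = 0.000824). After 72 hours the signal was 7.95, 8.44, 8.53 and 8.40 in invading samples, against 9.19, 9.06, 8.82 and 8.95 in non-invading samples (log2 ratio -0.67 ± 0.13, adjusted p = 0.00826), and its fractions were separated at both times.

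Snord37, in the elongation factor gene Eef2, was a dim RNA and was lower at both times. It was 5.88, 5.89, 5.41, 5.40 and 5.27 in invading samples, against 6.45, 6.26, 6.07, 6.03 and 6.58 in non-invading samples at 96 hours (log2 ratio -0.71 ± 0.15, adjusted p = 0.00487). The 72-hour signal was 4.80, 5.74, 5.19 and 4.82 in invading samples, against 6.53, 5.82, 5.77 and 6.06 in non-invading samples (log2 ratio -0.90 ± 0.23, adjusted p = 0.0251), and the fractions did not overlap at either time. Snord16a, Snord14e and Snord58b were called lower at 96 hours only. Snord16a, in Rpl4, had log2 ratios of -0.63 at 96 hours (adjusted p = 0.00245) and -0.49 at 72 hours (adjusted p = 0.105). Snord14e, in the chaperone gene Hspa8, had -0.59 at 96 hours (adjusted p = 0.0067) and 0.18 at 72 hours (adjusted p = 0.306). Snord58b had -0.33 at 96 hours (adjusted p = 0.0425) at a mean log2 signal of 4.36, the lowest of all 54 RNAs, and its call ended when each array's median signal, taken across all its probe sets, was subtracted (adjusted p = 0.126) or quantile normalization was applied again (adjusted p = 0.116), but not when that median was taken across probe sets with 1 symbol (adjusted p = 0.0381).

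The remaining C/D RNAs were called at neither time and numbered 12. Their log2 ratios ran between -0.18 (Snord61) and 0.22 (Snord49a) at 96 hours, and between -0.73 (Snord52) and 0.22 (Snord49a) at 72 hours. Snord49b and Snord57, the brightest C/D RNAs, had mean log2 signals of 13.18 and 12.59. Snord38a, among the dimmest at a mean log2 signal of 4.66, had log2 ratios of -0.075 and -0.14 at 96 and 72 hours. Snord57 was 12.79, 12.61, 12.67, 12.69 and 12.47 in invading samples, against 12.69, 12.28, 12.59, 12.40 and 12.40 in non-invading samples at 96 hours (log2 ratio 0.17 ± 0.087, adjusted p = 0.166).

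Of the 3 Cajal body RNAs, Scarna13 and Scarna17 were higher in the invading fraction at both times, and Scarna8 was called at 72 hours only. Scarna13 (U93), in Snhg10, was 11.02, 10.93, 10.67, 11.01 and 11.11 in invading samples, against 10.74, 10.60, 10.27, 10.41 and 10.29 in non-invading samples at 96 hours (log2 ratio 0.49 ± 0.11, adjusted p = 0.00651), with 1 invading sample inside the non-invading range. The values at 72 hours were 11.08, 11.19, 11.11 and 11.08 in invading samples, against 10.64, 10.60, 10.56 and 10.44 in non-invading samples, without overlap (log2 ratio 0.55 ± 0.066, adjusted p = 0.00118). Scarna17 was 11.88, 11.82, 11.89, 11.70 and 12.12 in invading samples, against 11.67, 11.53, 11.56, 11.48 and 11.35 in non-invading samples at 96 hours (log2 ratio 0.36 ± 0.084, adjusted p = 0.00788) and was separated at both times, with a log2 ratio of 0.35 at 72 hours (adjusted p = 0.00647). Scarna8, in Haus6, was 6.57, 6.68, 6.41, 6.66 and 6.35 in invading samples, against 6.63, 6.50, 6.13, 6.52 and 6.30 in non-invading samples at 96 hours (log2 ratio 0.12 ± 0.10, adjusted p = 0.441). In the 72-hour samples it was 6.69, 7.73, 7.07 and 7.96 in invading samples, against 6.77, 6.35, 6.55 and 6.42 in non-invading samples (log2 ratio 0.84 ± 0.25, adjusted p = 0.0459), with 1 invading sample among the non-invading ones, and leaving out invading replicate 2 or non-invading replicate 4 ended this call (adjusted p = 0.114 and 0.104).

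The signals of many of these RNAs were lower at 96 than at 72 hours in both fractions. In the invading fraction, 0 of the 54 RNAs were higher and 32 were lower at 96 than at 72 hours (59.3%), beside 18.2% of all genes higher and 16.7% lower. The 32 were 16 H/ACA, 14 C/D and 2 Cajal body RNAs, and the median log2 ratio over the 54 was -0.44, beside -0.031 for all genes. In the non-invading fraction 0 were higher and 26 were lower (12 H/ACA, 13 C/D and 1 Cajal body), beside 15.4% of all genes higher and 12.2% lower, at a median of -0.34. Without 1 sample at a time 25 to 38 RNAs were called in the invading fraction, and 20 to 29 in the non-invading one. No label gives the array batch, so time and a batch that followed it cannot be told apart.

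Snord118 had the largest fall in either fraction. Its signals at 96 hours, given above, averaged 9.14 ± 0.15 in invading samples against 11.21 ± 0.99 at 72 hours (log2 ratio -2.07 ± 0.29, adjusted p = 6.3e-05). In non-invading samples Snord118 averaged 8.38 ± 0.15 at 96 hours against 10.55 ± 0.22 at 72 hours (log2 ratio -2.16 ± 0.29, adjusted p = 8.96e-05). All 96-hour samples were below all 72-hour samples of their fraction. Snora62 fell by 1.65 in the invading and by 1.44 in the non-invading fraction on the log2 scale, with adjusted p = 3.59e-07 and 3.71e-06. Snora74a fell by 1.496 and by 1.44 (adjusted p = 5.86e-07 and 2.67e-06). Snora33 fell by 1.52 and by 1.38 (adjusted p = 0.000226 and 0.000867), and Snord53 by 1.37 and by 1.12 (adjusted p = 9.99e-07 and 1.42e-05).

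The ratio of invading over non-invading samples was also compared between the times in 1 fit of all 18 samples. It differed for 0 of the 54 RNAs, beside 0.015% of all genes (3 of 19938), and the lowest adjusted p was 0.258, for Snord14e. By unadjusted p under 0.05 there were 9 RNAs, Scarna8, Snora23, Snora30, Snora70, Snora75, Snord14e, Snord15a, Snord47 and Snord96a, each with the lower ratio at 96 hours. Of all 19938 genes, 1623 passed that threshold in either direction. An RNA that was called at 1 time only was therefore not shown to differ between times.

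The C/D RNAs over and under 100 nt had different median ratios. Annotated lengths in GRCm38.p6 ran from 61 to 205 nt for H/ACA RNAs (median 125) and from 45 to 148 nt for C/D RNAs (median 68). The 4 C/D RNAs over 100 nt were Snord15a (148 nt), Snord15b (145 nt), Snord118 (137 nt) and Snord22 (126 nt). At 96 hours 4 of these 4 were higher at a median log2 ratio of 0.62, and at 72 hours 3 of 4 at a median of 0.87. Of the 27 C/D RNAs up to 100 nt, 6 were higher and 7 lower at 96 hours (median -0.025), and 2 were higher and 4 lower at 72 hours (median -0.07). At 96 hours 16.7% of all genes were higher and 14.7% lower, and at 72 hours 13% and 13.5%, so the shares of the shorter RNAs at 72 hours were near or under those of all genes. Snord42a, with the lowest ratio at 72 hours, is annotated at 45 nt. Lengths are those of the annotation, and those of Snord42a, Snora20 (61 nt) and Scarna17 (62 nt) may be of incomplete records. The split at 100 nt was chosen after the values were seen and has no test. Snora20, the only H/ACA RNA annotated at up to 100 nt, was higher at both times. These points share arrays and normalization.

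**Figure D4:**
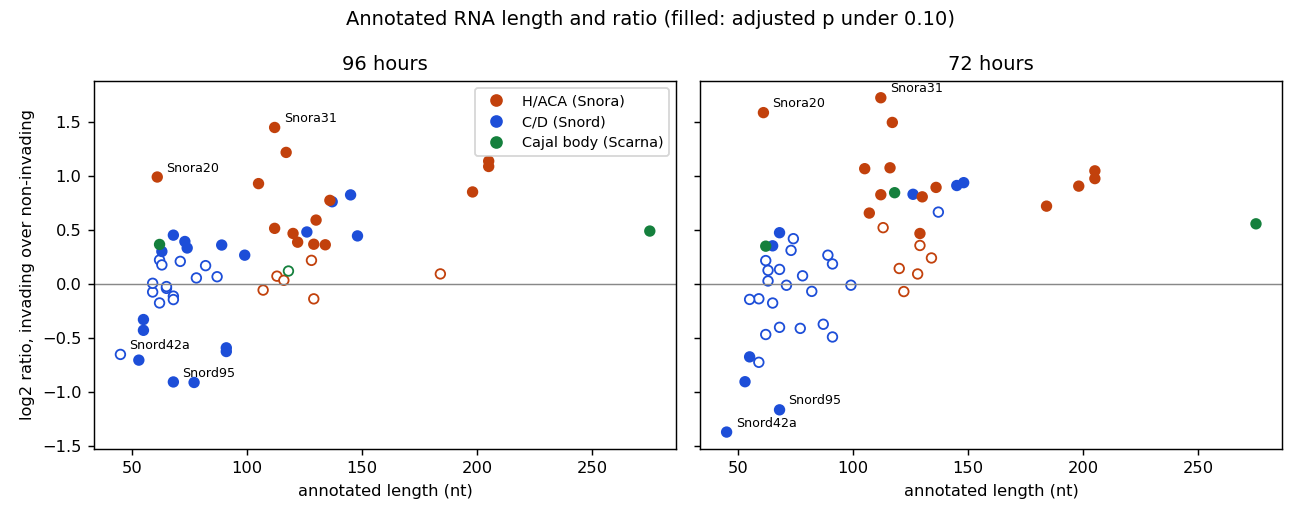
Annotated length in nt (horizontal axis) and log2 ratio of invading over non-invading samples (vertical axis) of the 54 RNAs at 96 and 72 hours, coloured by class; filled points have an adjusted p under 0.10. The C/D RNAs longer than 100 nt, a cut chosen after the values were seen, lie above 0 at both times. The C/D RNAs called lower are all between 45 and 91 nt.

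The classes overlapped in signal level. Mean log2 signal ran from 6.26 to 12.93 for H/ACA RNAs (median 9.75) and from 4.36 to 13.18 for C/D RNAs (median 9.03), beside a median of 7.14 for all genes. Of the C/D RNAs, 5 of 31 never exceeded a linear signal of 100 in any sample, and 0 H/ACA RNAs. Within the C/D class, the rank correlation of mean log2 signal with the log2 ratio was 0.57 at 96 hours and 0.58 at 72 hours. Within the H/ACA class it was 0.25 and -0.26. The part of signal level in the ratios was not tested.

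Host genes spanned a narrower range of ratios than their small RNAs, and most did not pass the test. Of the 46 hosts, 26 were measured by a probe set of their own symbol, which gave 30 pairs of RNA and host. At 96 hours 7 hosts were higher and 4 lower in the invading fraction, with log2 ratios of -0.74 to 0.41 and a median of 0.056. At 72 hours 5 were higher and 2 lower, with -0.72 to 0.33 and a median of -0.01. Of all genes 16.7% were higher and 14.7% lower at 96 hours, and 13% and 13.5% at 72 hours, and the 4 lower of 26 hosts at 96 hours were near that share. RNA and host had the same call in 5 pairs and opposite calls in 3 at 96 hours, and the same call in 3 and opposite calls in 0 at 72 hours. In 8 pairs at 96 hours and 13 at 72 hours the small RNA was called and the host was not. Pairs in 1 host share that host's value. Snord87, paired with Mcmdc2 among the same calls at 96 hours, also lay in Snhg6. Snord8, paired with Chd8 among the opposite calls, also lay in Gm26590. Snhg6 and Gm26590 were not measured, and without the strand the host cannot be told from an overlapping gene.

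Tpt1, host of Snora31, had log2 ratios of -0.029 at 96 hours (adjusted p = 0.642) and -0.001 at 72 hours (adjusted p = 0.992). Tcp1, host of Snora20, had 0.048 and -0.043. Rps3, host of the U15 RNAs, had 0.14 at each time and was called at 96 hours (adjusted p = 0.0748). Rpl23a, host of Snord42a and Snord42b, had 0.066 at 96 hours and 0.12 at 72 hours, neither of which passed the test. Eef2, host of Snord37, was called higher at 96 hours at 0.12 (adjusted p = 0.0651), opposite to its small RNA. Rpsa, host of Snora62, and Rps12, host of Snora33, were called higher with their RNAs, at 0.41 and 0.30 at 96 hours and at 0.31 and 0.21 at 72 hours. Ncl held 2 RNAs of different classes, and at 72 hours both Snora75 and Snord82 were higher while Ncl had a log2 ratio of -0.14 (adjusted p = 0.267). Snhg12, Snhg3, Snhg4, Snhg1, Snhg10 and Rack1 were not analysed here, since none has a probe set of its own.

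**Figure D5:**
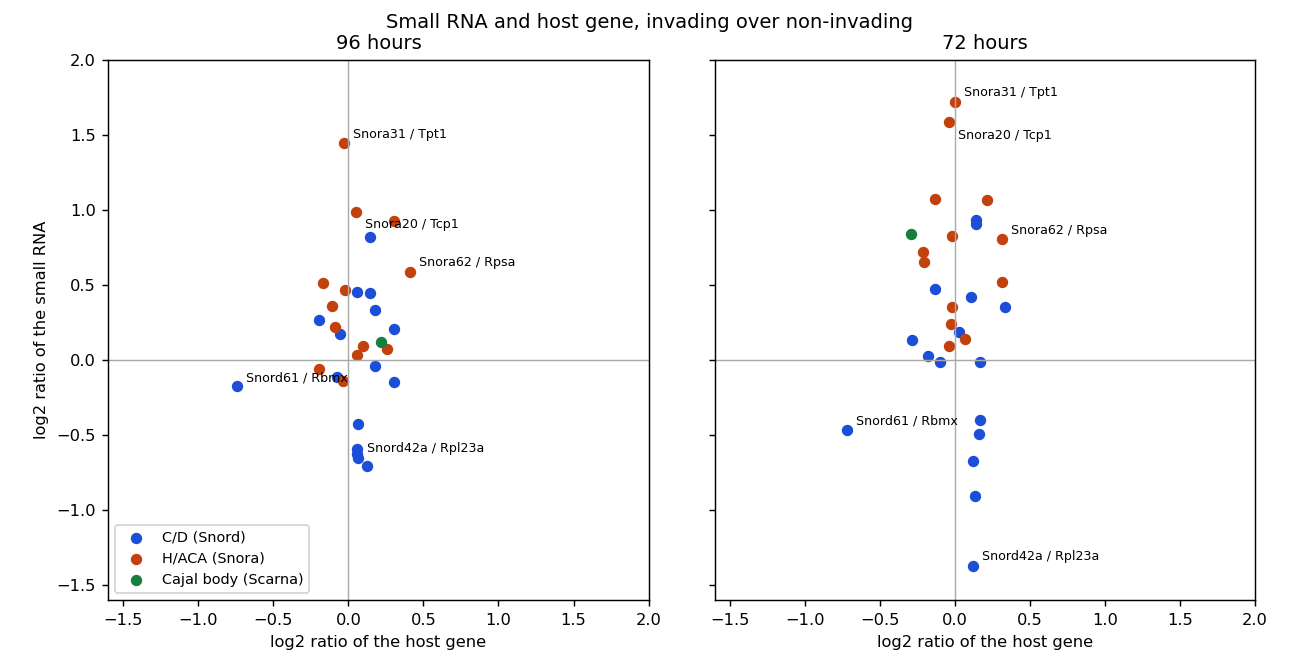
Log2 ratio of the host gene (horizontal axis) and of its small RNA (vertical axis), invading over non-invading samples, for the 30 pairs with a measured host at 96 and 72 hours, coloured by class of the small RNA. Hosts lie between -0.74 and 0.41, whereas the small RNAs spread between -1.37 and 1.72.

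The proteins of the particles were looked at as lists. Of the 6 genes of the H/ACA particle and its assembly, 4 were higher and 0 lower at each time, beside 16.7% higher and 14.7% lower of all genes at 96 hours and 13% and 13.5% at 72 hours. Gar1, a core protein of the particle, was 10.14, 10.03, 10.09, 10.05 and 10.03 in invading samples, against 9.16, 9.48, 9.41, 9.64 and 9.21 in non-invading samples at 96 hours (log2 ratio 0.69 ± 0.086, adjusted p = 0.000266), with a log2 ratio of 0.44 at 72 hours. Nhp2, another core protein, had 0.61 and 0.40, the assembly factor Shq1 0.49 and 0.56, and Naf1 0.20 and 0.22, at 96 and 72 hours. Dkc1, which encodes dyskerin, was not called, with 0.12 at 96 hours (adjusted p = 0.533) and -0.30 at 72 hours (adjusted p = 0.101), and neither was Nop10. The median of the 6 was 0.34 at 96 hours and 0.31 at 72 hours, beside 0.024 and 0.038 for all genes.

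Of the 4 genes of the C/D particle, 1 was higher and 0 lower at 96 hours, and 1 was higher and 1 lower at 72 hours. Fbl, which encodes fibrillarin, was 10.74, 10.46, 10.56, 10.56 and 10.64 in invading samples, against 9.97, 9.99, 9.96, 10.02 and 9.65 in non-invading samples at 96 hours (log2 ratio 0.67 ± 0.08, adjusted p = 0.000208), and its log2 ratio at 72 hours was 0.54. Nop58, a core protein, was lower at 72 hours (log2 ratio -0.40 ± 0.082, adjusted p = 0.00957), with -0.15 at 96 hours. Of 7 C/D assembly factors, 3 were higher (Ruvbl1, Znhit6 and Pih1d1) and 1 lower (Nufip1) at 96 hours, and 1 higher (Ruvbl1) and 1 lower (Nufip1) at 72 hours. Of 9 genes of Cajal bodies and small RNA maturation, 1 was higher (Smn1) and 3 lower (Tgs1, Tent4b and Coil) at 96 hours, and 0 higher and 2 lower (Tgs1 and Tent4b) at 72 hours. With 16.7% of all genes higher and 14.7% lower at 96 hours, and 13% and 13.5% at 72 hours, a single call in these short lists is near the share of all genes. Tgs1, which forms the trimethylated cap of some small RNAs, had log2 ratios of -0.40 and -0.44 at 96 and 72 hours. Tent4b, which adds short tails that mark RNAs for trimming, had -0.27 and -0.32.

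Of 19 listed noncoding host RNAs 7 were measured, and 2 were higher and 1 lower at 96 hours, with 3 higher and 2 lower at 72 hours. Of all genes 16.7% and 14.7% were higher and lower at 96 hours, and 13% and 13.5% at 72 hours, so that 1 lower of 7 is near the share of all genes. Snhg17 had log2 ratios of 0.60 at 96 and 0.84 at 72 hours, Snhg15 had 0.50 and 0.57, and Snhg5 had -0.61 and -0.70. Gas5, the host of Snord47, had 0.18 at 96 hours (adjusted p = 0.151) and was called at 72 hours, with 0.33 (adjusted p = 0.00918).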

How the data were processed

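Total RNA of 18 samples was hybridized to 1 gene-level Affymetrix mouse array each. The deposited log2 values are RMA summaries that the authors made in Affymetrix Expression Console (version 1.2 in the submitters' processing notes), after background correction and sketch-quantile normalization. They ran from 2.94 to 14.7 over 35556 probe sets, of which 6617 low-numbered ones are unnamed, and were used without further change. The genome build behind them is not given in the sources used here. Gene symbols are those of the platform annotation, in which 21789 probe sets with exactly 1 symbol stand for 19938 genes.

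The members and gene lists were chosen with earlier results of these data known. Groups came from the sample labels. The log2 values of the fractions were tested in limma 3.58.1 (R 4.3.3), with 1 fit for each time and no covariate, and times and their interaction in 1 fit of all 18 samples, with Benjamini-Hochberg adjustment over all probe sets. Detailed members were every RNA past the test at both times with a ratio above 1.5 at 1 or both, the 10 highest and 10 lowest past the test per time, Snora31, Snora44 and Snora20, the Scarna genes, the 3 brightest and 3 dimmest, their hosts and the members of the lists. Other members were named to account for each. The split by length and the sequence windows were chosen after the values were seen. Hosts, lengths and promoter windows came from RefSeq (GRCm38.p6).

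On simulated data, of 100 probe sets changed 2-fold and 100 changed 3-fold, the fit recovered 96 and 99 at 96 hours and 93 and 97 at 72 hours, and called 19 and 14 unchanged ones. Replicate numbers were checked for pairing. Deviations of same-numbered samples had correlations of 0.049 to 0.17 for the 96-hour samples and -0.075 to 0.087 for those of 72 hours. At 96 hours 4 of 5 samples correlated best with their own number, and at 72 hours 1 of 4. The main fits did not take the numbers as pairs, although the paper names a paired t-test for receptor levels from these arrays. Alternatives were another quantile normalization, centring, filters on signal or names, an intensity trend, 1 common fit, a threshold of 0.05, the mean over probe sets, a replicate block and leaving out each sample.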

Additional observations from a re-analysis of the deposited data

Results flagged for a closer look

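Among 120 groups of samples tested for 30 RNAs, 6 held a sample far from the others, judged by its gap to the nearest sample as a share of the whole range of the group. By chance about 1 in 20 groups is marked so. In 4 of the 6 the sample was the first invading replicate at 72 hours, below its companions. The share was 0.855 for Snora20 (7.44, with the next at 9.21), 0.874 for Snora33 (10.08, next 11.33), 0.983 for Snora75 (6.17, next 7.62) and 0.862 for Snord118 (9.74, next 11.59). In the other two the sample was the first non-invading replicate at 72 hours, above its companions, with 0.873 for Snora2b (7.34, next 6.96) and 0.852 for Snora75 (6.68, next 6.09). No cause was tested.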

How the results depend on the processing

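Of 355 values of the counts, class medians and class differences under the alternatives, 349 stayed within 1.5 times the count or within the spread between replicates. For single RNAs 1140 of 1194 values stayed on the same side of the test, and none reversed. The C/D medians lie close to 0 and took either sign. The count of lower C/D RNAs at 72 hours was 4, against 8 when probe sets with exactly 1 symbol were tested, 8 when the unnamed low-numbered ones were dropped and 7 in 1 fit of all 18 samples. Leaving out 1 sample gave 4 to 7 for it (7 without invading replicate 3), 5 to 12 higher C/D RNAs at 72 hours (12 without invading replicate 1), and C/D medians of -0.063 to 0.219 at 96 hours (0.219 without invading replicate 5) and -0.105 to 0.183 at 72 hours. With 1 sample left out, 13 to 14 H/ACA RNAs were higher at 96 hours and 12 to 18 at 72 hours. Under the other alternatives 12 to 15 were higher at each time. Causes were not tested. Centring each array on its median over all probe sets moved the median ratio of all probe sets from -0.001 by 0.119 at 96 hours and from 0.014 by 0.08 at 72 hours. With it the H/ACA median was 0.61 and 0.89 and the C/D median 0.17 and 0.067, at 96 and 72 hours, with 15 H/ACA RNAs higher at each time. With the replicate number as a block, 38 RNAs were called at 96 hours in place of 33. At 72 hours 24 were called in place of 26, and Snora2b and Snora75 lost their calls. Between times in the invading fraction, 25 were called in place of 32. That last block joined equal numbers across the times, which the labels do not give as pairs. Pairing was checked only within each time. At 96 hours 4 of 5 samples, and at 72 hours 1 of 4, correlated best with their own number. The stricter threshold of 0.05 ended the calls of Snora69, Snord104 and Snord8 at 96 hours and of Snora2b at 72 hours. The 5 C/D RNAs under a linear signal of 100 are limited by dim signal.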

Other observations

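Other small noncoding RNAs that are no guides were also higher in the invading fraction. Of 14 listed, 9 were measured, and 0 were lower at either time. At 96 hours 7 of the 9 were higher and at 72 hours 6, beside 16.7% and 13% of all genes higher. Vaultrc5, an RNA of the vault particle, was 11.61, 11.54, 11.87, 11.84 and 11.84 in invading samples, against 9.87, 9.60, 10.58, 9.79 and 9.51 in non-invading samples at 96 hours (log2 ratio 1.87 ± 0.18, adjusted p = 5.72e-05). At 72 hours it was 11.94, 12.36, 12.39 and 12.89 in invading samples, against 10.20, 10.27, 10.39 and 10.49 in non-invading samples (log2 ratio 2.05 ± 0.17, adjusted p = 0.000371), and the fractions did not overlap at either time. Rny1, a Y RNA bound by the Ro protein, had log2 ratios of 1.41 and 1.04 at 96 and 72 hours. Terc, the telomerase RNA, which carries an H/ACA domain bound by dyskerin, had 0.75 and 0.76. The minor spliceosomal RNA Rnu12 had 0.59 and 1.04, the RNA of RNase MRP (Rmrp) 0.55 and 0.44, and that of RNase P (Rpph1) 0.35 and 0.30. Rn7sk and Rnu6 were called at neither time, Rnu6 at a mean log2 signal of 3.59.

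Of the long nuclear RNAs listed, Malat1 and Xist were lower at both times and Meg3 was not called, beside 14.7% and 13.5% of all genes lower at 96 and 72 hours. Malat1 was 12.22, 12.06, 11.75, 11.78 and 11.59 in invading samples, against 12.65, 12.75, 12.70, 12.46 and 12.66 in non-invading samples at 96 hours (log2 ratio -0.76 ± 0.11, adjusted p = 0.000641), and its log2 ratio at 72 hours was -0.84 (adjusted p = 0.00319). Xist had -1.10 at 96 hours (adjusted p = 0.000125) and -1.05 at 72 hours (adjusted p = 0.00954).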
